A study of Danio rerio with 55 samples.

Results

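The zebrafish gene isl1 (ENSDARG00000004023, 1 of the 32266 genes counted in each library) was followed through all RNA libraries of the series, with the question of whether its difference between MZezh2 mutants and wild types ran the same way in early embryos as at 24 hours post fertilization (hpf). Whole-embryo RNA was sequenced at 0, 3.3 and 24 hpf in 36 libraries: 6, 7 and 7 from MZezh2 embryos, and 5, 5 and 6 from wild types. MZezh2 embryos carry the nonsense allele ezh2 hu5670 and lack both the maternal and the zygotic supply of functional Ezh2; their parents were fish whose germ line had been replaced by mutant germ cells, and the wild types came from fish with a wild-type germ line. Both genotypes had a mixed TU and TLF background. A library held 20 embryos at 0 and 3.3 hpf and 10 to 20 embryos at 24 hpf, so that each value is an average over pooled embryos and over all tissues. In such bulk samples, fewer cells that express a gene and less RNA per cell cannot be told apart.

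isl1 encodes Islet1, a transcription factor with a pair of LIM domains and a homeodomain. It is known for the specification of motor neurons and of primary sensory neurons, such as the Rohon-Beard cells of fish, and in vertebrates it also acts in pancreatic endocrine cells and in progenitors of the second heart field. LIM homeodomain factors work in complexes that are assembled by the cofactor Ldb1 and are competed for by LIM-only (LMO) proteins. Ezh2 is the catalytic subunit of Polycomb repressive complex 2 (PRC2), which trimethylates lysine 27 of histone H3, a mark found at silent developmental genes.

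The libraries held between 2736282 and 24041447 counts on genes. Replicates are separate samples by their labels, and p-values measure the spread between these samples. The targeted transcript set the MZezh2 libraries apart into 2 kinds. At 0 hpf, ezh2 stood at 2.85, 4.38 and 3.56 CPM (counts scaled to library size) in MZezh2 replicates 1, 2 and 4, but at 269, 321 and 364 CPM in replicates 3, 5 and 6, against 198 to 411 CPM in wild types. At 3.3 hpf it stood at 3.81 to 5.86 CPM in MZezh2 replicates 1, 2, 4 and 5 and at 190 to 254 CPM in replicates 3, 6 and 7, against 242 to 532 CPM in wild types. At 24 hpf it stood at 34.9 to 48.3 CPM in MZezh2 replicates 1 to 4 and at 102 to 124 CPM in replicates 5 to 7, against 124 to 216 CPM in wild types.

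In the 9 MZezh2 libraries with much ezh2, its counts lay on both strands: 48.0 to 50.2% of them were on the opposite strand at 0 and 3.3 hpf and 30.8 to 41.6% at 24 hpf, while over all genes at most 3.00% of counts were on the opposite strand in these libraries. Wild-type replicates 3 and up also held 5.24 to 26.4% of their ezh2 counts on that strand, and wild-type replicates 1 and 2 at most 1.30%. The cause was not tested. A difference was called where its adjusted p was under 0.05 and it was at least 2-fold. With all libraries, the ezh2 difference was not called at any stage by edgeR on unstranded counts (log2 fold change −1.01 ± 1.08, −2.05 ± 1.06 and −1.29 ± 0.31, ± SE; edgeR adjusted p = 0.737, 0.360 and 0.124 at 0, 3.3 and 24 hpf). At 24 hpf it was called with all libraries by DESeq2 (adjusted p = 0.0105), on counts of the usual strand (edgeR adjusted p = 0.0014) and with replicates 1 and 2 as a term (edgeR adjusted p = 0.0241). Without the libraries with over 25% of ezh2 counts on the opposite strand it was called at all 3 stages (log2 fold change −6.50, −6.15 and −2.08; edgeR adjusted p = 0.000396, 0.000111 and 0.0019). That cut-off removed 1 wild-type library too, replicate 5 at 3.3 hpf, and a cut-off of 30% kept it; both cut-offs were chosen after seeing the data. Results for isl1 are therefore given with all libraries, as labelled, and without these.

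**Figure D1:**
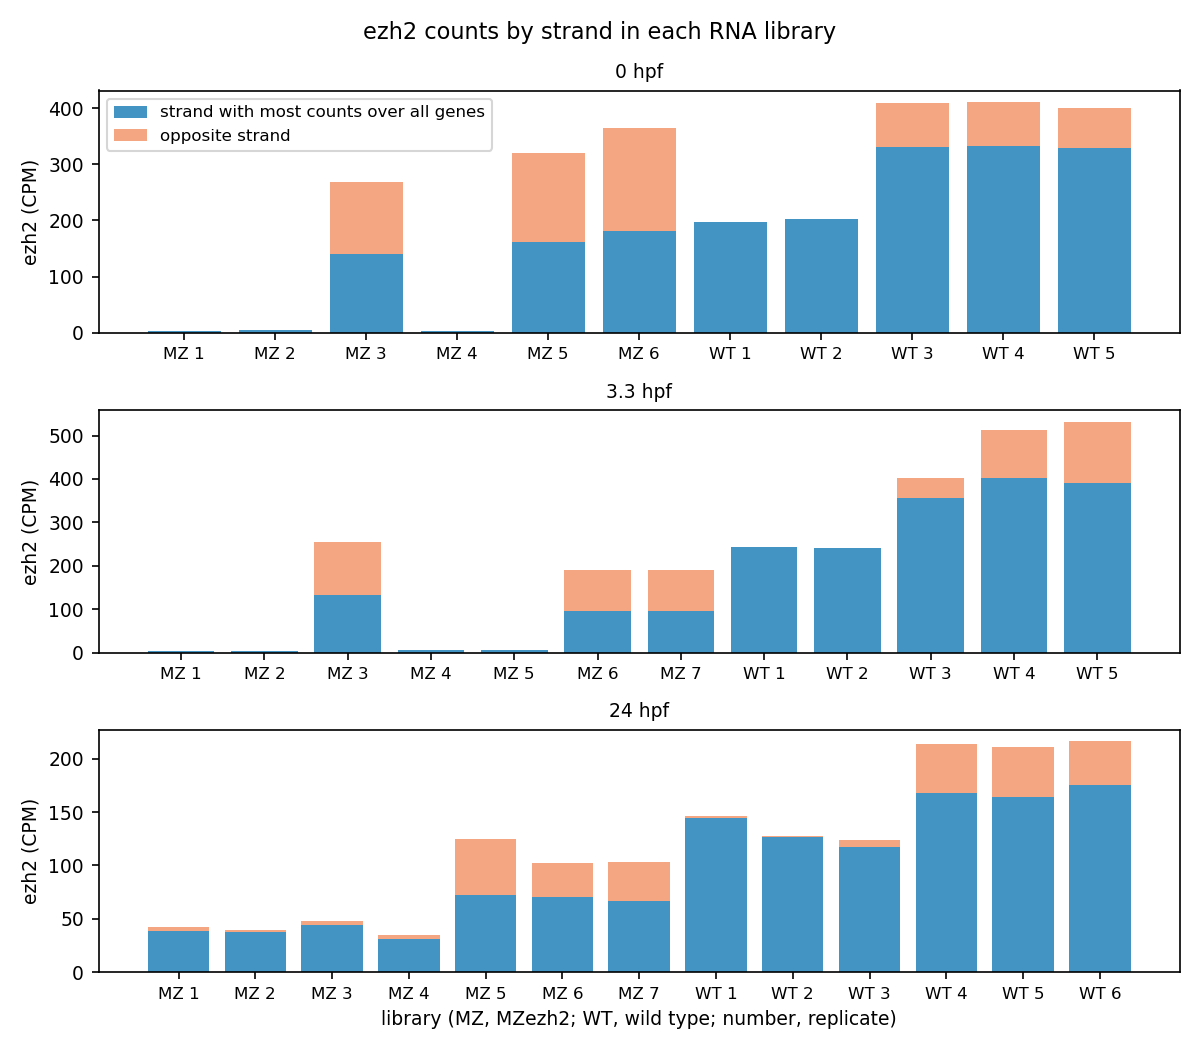
Level of ezh2 in each RNA library (CPM, linear axis from 0), split by strand, in MZezh2 libraries on the left and wild-type libraries on the right of each panel. MZezh2 replicates 3, 5 and 6 at 0 hpf, 3, 6 and 7 at 3.3 hpf and 5 to 7 at 24 hpf hold counts on both strands, while the other MZezh2 libraries at 0 and 3.3 hpf stand at 2.85 to 5.86 CPM.

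At 0 hpf, before zygotic transcription, isl1 transcripts were rare. The 6 MZezh2 libraries held 10, 31, 2, 2, 5 and 2 isl1 counts, which is 0.432, 1.42, 0.219, 0.254, 0.639 and 0.190 CPM. The 5 wild-type libraries held 0, 3, 0, 5 and 0 counts, which is 0, 0.128, 0, 0.373 and 0 CPM. Every MZezh2 library thus had at least 2 counts and 3 of the 5 wild-type libraries had none, but the groups overlapped, and a count of 0 in those 3 allows up to 0.137, 0.555 and 0.242 CPM (3 counts per library, for counting error only).

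The level averaged 0.525 ± 0.468 CPM in MZezh2 embryos (SD, n = 6) and 0.10 ± 0.16 CPM in wild types (SD, n = 5). isl1 did not pass the filter on low counts at this stage, so it was tested in a fit without the filter over 27383 genes, where its log2 fold change was 2.21 ± 0.97 (SE; 95% interval 0.31 to 4.11). The difference was not called (edgeR adjusted p = 0.230). An unadjusted p under 0.05, as isl1 had, was reached by 18.9% of all genes in that fit, and 4.16% of them were called higher in MZezh2 embryos. In the exact permutation test over the 11 libraries (two-sided, log2(CPM + 0.1)), the means differed by 1.69 and p was 0.0260, or 0.0390 after adjustment over the 3 stages. This p passed 0.05 only narrowly: 7 of the 11 fits with 1 library left out gave an adjusted p above it, up to 0.0857 without wild-type replicate 1, 3 or 5.

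A single library weighed on the MZezh2 mean at 0 hpf. Replicate 2 held 31 of the 52 MZezh2 counts, and without it the mean was 0.347 ± 0.189 CPM (SD, n = 5), still against 0.10 ± 0.16 CPM in wild types; the permutation test then gave an adjusted p of 0.0714 by exact enumeration. Without the 3 libraries with ezh2 on both strands the MZezh2 mean was 0.700 ± 0.625 CPM (SD, n = 3), with a log2 fold change of 2.64 ± 1.16 (SE; edgeR adjusted p = 0.226). Those 3 libraries alone stood at 0.219, 0.639 and 0.190 CPM, and none was at 0. Within replicates 1 and 2, the MZezh2 libraries stood at 0.432 and 1.42 CPM, against 0 and 0.128 CPM in wild types. An order of 2 libraries per genotype carries little weight, and the share of all genes in such an order is not given. Within the other replicates the genotypes overlapped (0.190 to 0.639 CPM, against 0 to 0.373 CPM).

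Pooled over libraries, the strand of the few isl1 counts differed between genotypes at 0 hpf as well. Counted by strand, 48 isl1 counts lay on the gene's usual strand and 4 on the other in MZezh2 libraries, against 5 and 7 in wild-type libraries. The 5 wild-type counts on the usual strand came from replicate 4 alone. Of the 48 MZezh2 counts, 30 came from replicate 2 and 9 from replicate 1, so the pooled split rests on few libraries in both genotypes. Strand totals can exceed the unstranded count, since a read that overlaps genes on both strands is counted only where strand is used. On the usual strand alone the log2 fold change was 2.57 ± 1.13 (SE; edgeR adjusted p = 0.243).

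At 3.3 hpf, around the onset of zygotic transcription, isl1 remained near the limit of detection. The 7 MZezh2 libraries held 6, 35, 12, 6, 10, 4 and 0 counts, which is 0.260, 1.71, 1.45, 0.387, 0.728, 0.412 and 0 CPM. The 5 wild-type libraries held 3, 0, 4, 1 and 7 counts, which is 0.142, 0, 0.370, 0.129 and 0.90 CPM. The groups overlapped widely: 1 library of each genotype was at 0, where 3 counts would be 0.228 CPM in the MZezh2 and 0.153 CPM in the wild-type library, and only MZezh2 replicates 2 and 3 exceeded the highest wild-type library.

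The level averaged 0.707 ± 0.639 CPM in MZezh2 embryos (SD, n = 7) and 0.308 ± 0.357 CPM in wild types (SD, n = 5). The log2 fold change in the fit without the filter (28640 genes) was 1.26 ± 0.94 (SE; 95% interval −0.58 to 3.10), which was not called (edgeR adjusted p = 0.489; 3.77% of those genes were called higher). The exact permutation test gave a difference of 0.92 on the log2(CPM + 0.1) scale and p = 0.268. Without the libraries with ezh2 on both strands the log2 fold change was 2.31 ± 1.02 (SE; edgeR adjusted p = 0.354) at the 25% cut-off, which leaves out wild-type replicate 5, the highest of its group, and 1.41 ± 0.96 (SE; edgeR adjusted p = 0.508) at the 30% cut-off, which keeps it. Without MZezh2 replicate 2 the MZezh2 mean was 0.540 ± 0.506 CPM (SD, n = 6). Within replicates 1 and 2 the MZezh2 libraries stood at 0.260 and 1.71 CPM, against 0.142 and 0 CPM in wild types, again with only 2 libraries per genotype. Within the other replicates the genotypes overlapped (0 to 1.45 CPM, against 0.129 to 0.90 CPM).

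At 24 hpf, when primary motor and sensory neurons are in place, isl1 was readily detected in every library and the order of the genotypes was the other way round. The 7 MZezh2 libraries held 56 to 513 counts and stood at 25.9, 28.2, 20.8, 18.1, 21.7, 21.2 and 20.5 CPM. The 6 wild-type libraries held 163 to 662 counts and stood at 29.0, 34.1, 26.4, 23.0, 30.2 and 24.9 CPM. Of the MZezh2 libraries, 5 lay below every wild-type library, while replicates 1 and 2 lay inside the wild-type range.

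The level averaged 22.3 ± 3.47 CPM in MZezh2 embryos (SD, n = 7) and 27.9 ± 4.00 CPM in wild types (SD, n = 6). The log2 fold change was −0.32 ± 0.13 (SE; 95% interval −0.59 to −0.06), a level 0.800 times that of wild types. It was not called: the edgeR adjusted p over 18806 genes was 0.609. An unadjusted p under 0.05, as isl1 had, was reached by 7.15% of these genes, and 0.101% were called lower in MZezh2 embryos. The exact permutation test gave a difference of −0.32 on the log2(CPM + 0.1) scale with p = 0.0233, or 0.0390 after adjustment over the 3 stages. Of 13 fits with 1 library left out, 8 gave an adjusted p above 0.05, up to 0.0758 without wild-type replicate 2. The fold change kept its sign in all 13, between −0.39 and −0.25.

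Replicates 1 and 2 of both genotypes formed a set of their own at 24 hpf, with 15422759 to 23394029 counts per library against 2736282 to 12701781 in the other libraries. Within them, MZezh2 libraries stood at 25.9 and 28.2 CPM, against 29.0 and 34.1 CPM in wild types. Within the other libraries, MZezh2 libraries stood at 18.1 to 21.7 CPM, against 23.0 to 30.2 CPM in wild types. The genotypes did not overlap within either set, as was the case for 0.888% of the 18806 genes with MZezh2 lower and 0.962% with MZezh2 higher. With this set as a term, chosen after the depths were seen, the log2 fold change was −0.31 ± 0.10 (SE; edgeR adjusted p = 0.233), again not called. Without the MZezh2 libraries with ezh2 on both strands the mean was 23.2 ± 4.62 CPM (SD, n = 4), against 27.9 ± 4.00 CPM in wild types, and the log2 fold change was −0.26 ± 0.17 (SE; edgeR adjusted p = 0.581).

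**Figure D2:**
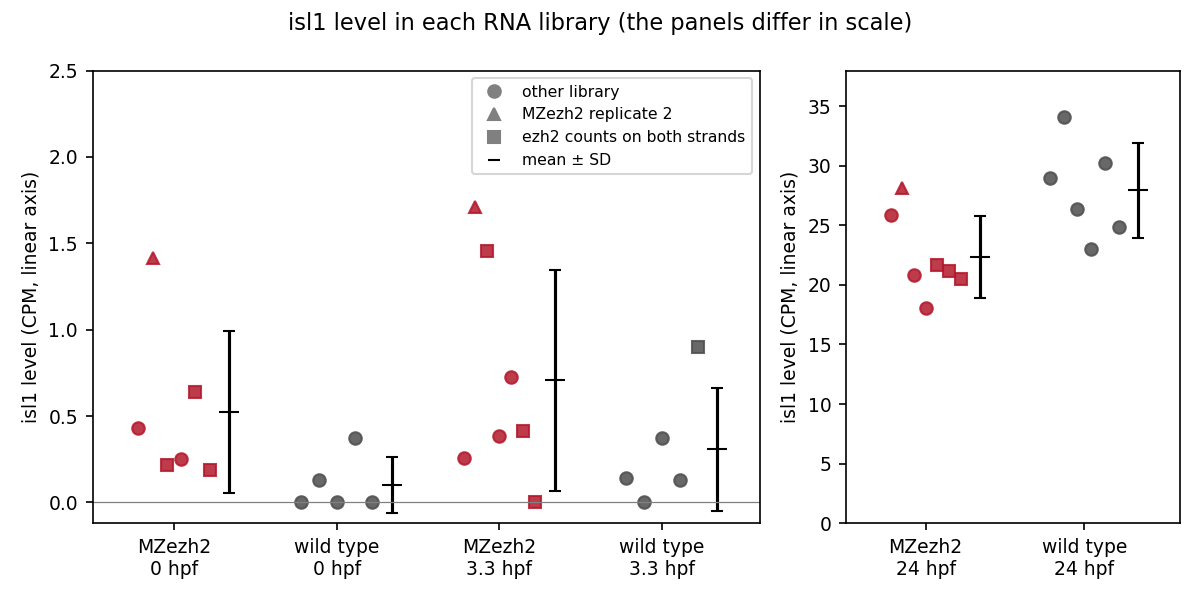
Level of isl1 in each RNA library (CPM, linear axes; the 2 panels differ in scale), MZezh2 left of wild type at each stage, with the mean ± SD of each group in black. The groups overlap at every stage; triangles mark MZezh2 replicate 2, the highest MZezh2 library at 0, 3.3 and 24 hpf (1.42, 1.71 and 28.2 CPM), and squares mark libraries with over 25% of ezh2 counts on the opposite strand.

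Whether the genotype difference itself changed between stages was tested in 1 fit over all 36 libraries (21709 genes, isl1 included). The difference at 24 hpf minus that at 0 hpf was −2.56 ± 0.93 on the log2 scale (SE; 95% interval −4.39 to −0.73), with an edgeR adjusted p of 0.10, so that it was not called. In that direction 6.11% of genes were called, and 17.9% of genes had an unadjusted p under 0.05, as isl1 had. With DESeq2 the same contrast was −2.69 with an adjusted p of 0.0325, and without wild-type replicate 4 at 0 hpf, the library with 5 of the 8 wild-type counts, it was −3.62 with an edgeR adjusted p of 0.0306. The remaining 35 fits with 1 library left out gave no call. The difference at 24 hpf minus that at 3.3 hpf was −1.68 ± 0.86 (SE; edgeR adjusted p = 0.361; 4.82% of genes called in that direction), and that at 3.3 hpf minus that at 0 hpf was −0.89 ± 1.05 (SE; edgeR adjusted p = 1.00). No gene was called in the last of these contrasts with edgeR, where 525 genes had an unadjusted p under 0.05, and 7 were called with DESeq2.

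In that fit over all libraries, isl1 in MZezh2 over wild-type embryos had a log2 fold change of 2.24 ± 0.79 at 0 hpf (SE; edgeR adjusted p = 0.0543), 1.35 ± 0.70 at 3.3 hpf (edgeR adjusted p = 0.255) and −0.33 ± 0.49 at 24 hpf (edgeR adjusted p = 1.00). The sign was thus positive at both early stages and negative at 24 hpf. With each stage fitted on its own, it stayed the same with each library left out and under each other processing. The 3 genotype values of the fit over all libraries were not rerun with 1 library left out. The 0 hpf value of that fit lay close to the threshold: it was called under 7 of its 8 alternatives, with adjusted p between 0.0145 (DESeq2) and 0.0488, and not without the filter on low counts (edgeR adjusted p = 0.0648). There isl1 passed the filter through its 24 hpf counts, and 1 spread per gene was shared by all groups. Its SE was smaller at 0 hpf and larger at 24 hpf than in the fits of those stages alone. The 0 hpf value of that fit therefore does not rest on the 0 hpf libraries alone. None of the 3 differences was called when each stage was fitted on its own, under any alternative.

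**Figure D3:**
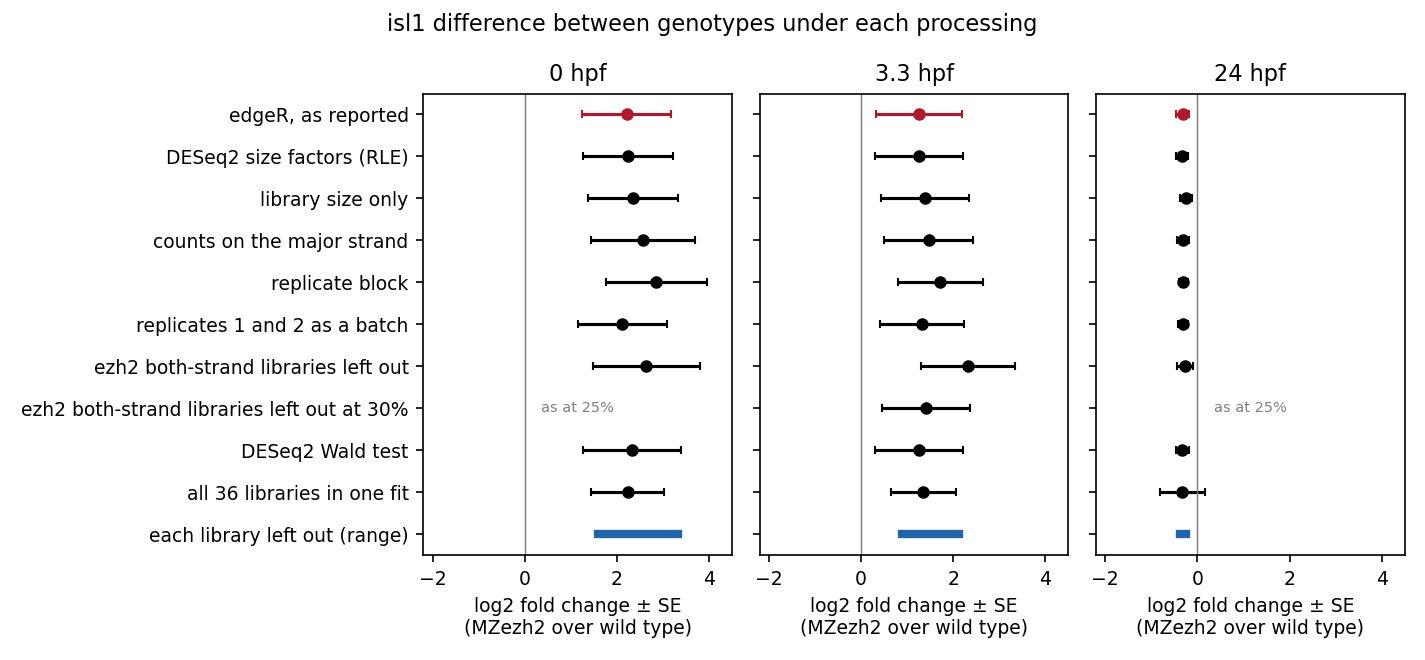
log2 fold change of isl1 (MZezh2 over wild type) with its SE at 0, 3.3 and 24 hpf, under the processing reported in the text (red), the alternatives named on the axis (black) and the stage-wise fits with 1 library left out (blue bar, lowest to highest). Not every alternative run is drawn. Values are above 0 at 0 and 3.3 hpf and below 0 at 24 hpf throughout; the last black row uses all 36 libraries.

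By far the largest change of isl1 was with stage. In MZezh2 embryos the level at 24 hpf was above that at 3.3 hpf by 5.17 ± 0.58 on the log2 scale and above that at 0 hpf by 5.50 ± 0.64 (SE; edgeR adjusted p = 9.4e-10 and 1.88e-09). In wild types the corresponding differences were 6.84 ± 0.77 and 8.06 ± 0.83 (SE; edgeR adjusted p = 8.6e-10 and 1.07e-10). All 4 were called, as were 35.6%, 35.7%, 37.6% and 38.8% of all genes in these contrasts. From 0 to 3.3 hpf the change was 0.33 ± 0.59 in MZezh2 embryos and 1.22 ± 0.90 in wild types (SE; edgeR adjusted p = 1.00 and 0.726), neither called; the MZezh2 value was −0.12 without MZezh2 replicate 2 at 3.3 hpf. The median log2 change of all genes from 3.3 to 24 hpf lay at 0.11 in MZezh2 embryos and 0.19 in wild types, and at 0.52 and 0.61 with DESeq2's size factors, far below the change of isl1.

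In order of their mean, the groups ran from wild types at 24 hpf (27.9 CPM) through MZezh2 embryos at 24 hpf (22.3 CPM), MZezh2 embryos at 3.3 hpf (0.707 CPM), MZezh2 embryos at 0 hpf (0.525 CPM) and wild types at 3.3 hpf (0.308 CPM) to wild types at 0 hpf (0.10 CPM). Of the 5 pairs of neighbours, which were set by the observed order, only MZezh2 embryos at 24 and 3.3 hpf did not overlap (exact permutation test, two-sided, adjusted over the 5 pairs, p = 0.00291). The other 4 pairs overlapped, with adjusted p = 0.0583, 0.822, 0.330 and 0.330 in the order given, by the same exact test. The first of these is the 24 hpf genotype test given above (exact permutation p = 0.0233). Its adjusted p was 0.0390 over the 3 stages, and only the number of tests adjusted for differs.

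Of the other Islet genes, isl1b followed isl1 only in part, and both ISL2 genes had the same order of group means at each stage. isl1b (ENSDARG00000021055), annotated as a second isl1 paralog, was highest in the youngest embryos. At 0 hpf it stood at 4.01 to 25.4 CPM (median 13.2) in MZezh2 libraries, against 2.83 to 8.80 CPM (median 5.07) in wild types. At 3.3 hpf it stood at 4.15 to 18.6 CPM (median 10.4) in MZezh2 libraries, against 1.65 to 6.66 CPM (median 1.89) in wild types, and was called higher (log2 fold change 1.90 ± 0.47, SE; edgeR adjusted p = 0.0256; above 0.05 without wild-type replicate 1, 2, 4 or 5 or MZezh2 replicate 5, up to 0.0656, and 0.193 without the libraries with ezh2 on both strands, or 0.0993 at the 30% cut-off). At 24 hpf it had almost gone, with 0 to 1.11 CPM in MZezh2 libraries against 0 to 0.485 CPM in wild types, so that its course over time was opposite to that of isl1.

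ISL2, which acts beside Islet1 in motor and sensory neurons, is annotated to 2 zebrafish genes. Both were filtered out at 0 and 3.3 hpf, so they were not tested there. ISL2 ENSDARG00000053499 reached at most 1.19 CPM and averaged 0.458 and 0.287 CPM in MZezh2 embryos, against 0.0949 and 0.120 CPM in wild types. ISL2 ENSDARG00000003971 averaged 0.556 and 0.445 CPM, against 0.108 and 0.0643 CPM. Apart from MZezh2 replicate 2 (2.42 and 2.44 CPM), it reached at most 0.456 CPM. Both thus averaged higher in early MZezh2 embryos, as isl1 did, with overlapping groups. At 24 hpf, ISL2 ENSDARG00000053499 stood at 6.98 to 10.0 CPM in MZezh2 libraries, against 6.66 to 15.2 CPM in wild types, and ISL2 ENSDARG00000003971 at 5.74 to 17.8 CPM, against 5.57 to 19.9 CPM. Their log2 fold changes were −0.16 ± 0.20 and −0.25 ± 0.37 (SE; edgeR adjusted p = 1.00 for both).

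Some other LIM homeobox genes were called higher in early MZezh2 embryos. Of the 20 LIM homeobox genes listed, isl1 included, 11 passed the filter at 0 hpf and 5 of them were called higher in MZezh2 embryos, where 6.06% of all 16489 genes tested were called higher; at 3.3 hpf 12 passed and 5 were called higher, against 5.88% of 16897 genes. None was called lower, as 0.17% and 0.178% of all genes were. The median log2 fold change of those that passed was 1.23 at 0 hpf and 0.96 at 3.3 hpf, against −0.02 and −0.07 over all genes tested. A gene with low counts in wild types can pass the filter through its counts in MZezh2 libraries. These medians and shares of calls therefore describe only those that passed. The same limit holds for the shares of calls in the other lists at 0 and 3.3 hpf.

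LMX1B ENSDARG00000068365, a factor of dorsal limb and midbrain development in mouse, separated the genotypes completely in early embryos. At 0 hpf it stood at 19.9, 28.6, 25.4, 36.9, 40.0 and 24.0 CPM in MZezh2 libraries, against 3.65, 4.46, 3.52, 3.06 and 6.29 CPM in wild types. At 3.3 hpf it stood at 22.3 to 41.1 CPM (median 31.0), against 2.19 to 4.39 CPM (median 3.52). All MZezh2 libraries exceeded every wild-type library at both stages, including those with ezh2 on both strands (log2 fold change 2.79 ± 0.28 and 3.15 ± 0.26, SE; edgeR adjusted p = 0.000193 and 1.82e-05). At 24 hpf the levels were 32.9 ± 4.44 CPM in MZezh2 embryos (SD, n = 7) and 25.4 ± 3.06 CPM in wild types (SD, n = 6), not called. The second LMX1B gene, ENSDARG00000104815, averaged 1.42 and 1.75 CPM in MZezh2 embryos at 0 and 3.3 hpf, against 1.36 and 1.77 CPM in wild types. Complete separation at both early stages was not particular to LMX1B ENSDARG00000068365, since LMO1 and TBX5 of the other lists had it too. The share of all genes with such a separation is not given.

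LHX4, which acts with LHX3 in motor neurons and the pituitary, averaged 2.94 ± 2.43 CPM in MZezh2 embryos at 0 hpf (SD, n = 6) and 0.362 ± 0.298 CPM in wild types (SD, n = 5), a log2 fold change of 2.99 ± 0.74 (SE; edgeR adjusted p = 0.0268), and its log2 fold change at 3.3 hpf was 3.94 ± 0.79 (edgeR adjusted p = 0.00698). LHX6 ENSDARG00000006896, a factor of forebrain interneurons, was called at both early stages (log2 fold change 3.19 and 3.14; edgeR adjusted p = 0.0365 and 0.00838), as was LHX9, a factor of gonad and forebrain development (3.02 and 2.95; edgeR adjusted p = 0.0297 and 0.0454). LHX6 ENSDARG00000052165 was called at 0 hpf (log2 fold change 1.74; edgeR adjusted p = 0.0447) and not at 3.3 hpf; its difference at 3.3 hpf minus that at 0 hpf was −0.41 ± 0.75 (SE), not called.

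These calls other than LMX1B rested on few libraries. At 0 hpf the adjusted p exceeded 0.05 for LHX4 without wild-type replicate 1, 2, 3 or 4 or MZezh2 replicate 4 (up to 0.0753), and for LHX9 without any one of the 5 wild-type replicates (up to 0.0699). The same held for LHX6 ENSDARG00000006896 without wild-type replicate 1 to 4 or MZezh2 replicate 3 to 6 (up to 0.0913), and for LHX6 ENSDARG00000052165 without any one of the 5 wild-type replicates (up to 0.128). At 3.3 hpf LHX4 and LHX6 ENSDARG00000006896 stayed called without each library, and LHX9 did not without any one of the 5 wild-type replicates (up to 0.101). These genes did not pass the filter in every such fit. At 0 hpf LHX9 and LHX6 ENSDARG00000052165 were tested in only 6 of 11 fits, and LHX4 and LHX6 ENSDARG00000006896 in 10. LHX9 was tested in 7 of 12 fits at 3.3 hpf. In the fits where a gene was not tested, its call was not kept. Without the libraries with ezh2 on both strands, the adjusted p was 0.152 and 0.106 for LHX6 ENSDARG00000006896 at 0 and 3.3 hpf (0.0528 at 3.3 hpf at the 30% cut-off), 0.0515 for LHX4 and 0.0898 for LHX6 ENSDARG00000052165 at 0 hpf, and 0.0899 for LHX9 at 3.3 hpf. A strand-split term marked libraries with over 5% of all counts on the opposite strand, in a fit without the filter on low counts. With it, LHX4, LHX9 and both LHX6 genes also lost their calls at 0 hpf (edgeR adjusted p = 0.0532, 0.0553, 0.0708 and 0.120). At 0 hpf this term set apart only MZezh2 replicate 4 (10.8%), so it acted much as leaving out that library. LHX6 ENSDARG00000006896 lost its call at 0 hpf with counts of the usual strand (0.0518). LHX6 ENSDARG00000052165 lost its call at 0 hpf without the filter on low counts (0.096). LMX1B ENSDARG00000068365 stayed called under every alternative run.

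At 24 hpf 17 of the 20 LIM homeobox genes passed the filter and none was called by edgeR in either direction, where 0.223% of all genes were called higher. Their median log2 fold change was 0.08, against −0.01 over all genes. For 4 of the 19 members in the fit over all libraries, isl1 included, the genotype difference at 24 hpf was called lower than that at 0 hpf, as it was for 6.11% of all genes: LMX1B ENSDARG00000068365 (−2.36 ± 0.29, SE), LHX4 (−2.81 ± 0.78), LHX6 ENSDARG00000006896 (−2.97 ± 0.81) and lhx1b (−2.69 ± 0.83), with edgeR adjusted p of 1.08e-06, 0.0203, 0.0177 and 0.0427. The lhx1b value rests on few counts, since at 0 hpf this gene held 23 counts over all MZezh2 libraries and 2 over all wild types. The value of isl1 in this contrast, −2.56 ± 0.93, was of similar size, with an edgeR adjusted p of 0.10. For LMX1B, LHX4 and LHX6 the difference at 24 hpf was also called lower than that at 3.3 hpf.

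**Figure D4:**
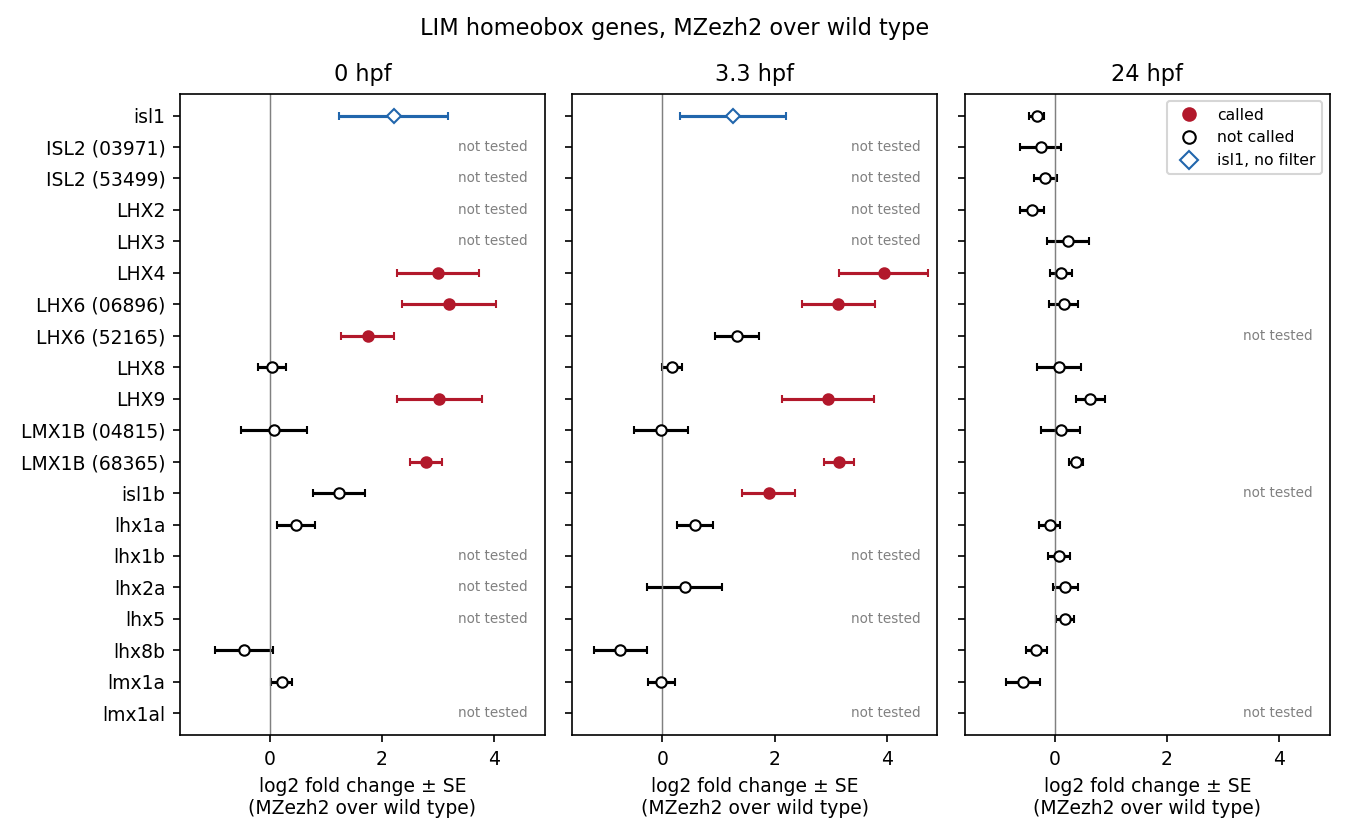
log2 fold change (MZezh2 over wild type) with its SE of the 20 LIM homeobox genes at 0, 3.3 and 24 hpf; filled red points are called, open black points are not, and open blue diamonds give isl1 from the fit without the filter on low counts. Called genes lie at 1.74 to 3.94 in the early panels, and none is called at 24 hpf. Where 2 genes share a symbol, the last 5 digits of the gene identifier follow it.

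Of the list of LIM domain cofactors, 3 of 13 tested were called higher at 0 hpf and 4 of 13 at 3.3 hpf, against 6.06% and 5.88% of all genes. LMO1, a LIM-only protein that binds Ldb1, had the largest change: 9.80 to 47.3 CPM (median 15.1) in MZezh2 libraries at 0 hpf, against 0.185 to 1.04 CPM (median 0.510) in wild types, a log2 fold change of 5.23 ± 0.57 (SE; edgeR adjusted p = 0.000265). lmo4a and LMO7 were called at both stages and LMO3 at 3.3 hpf. LMO7 is in the list by its name and is not a LIM-only cofactor of Ldb1. Without the libraries with ezh2 on both strands the calls of LMO7 at 0 hpf (edgeR adjusted p = 0.0668) and LMO3 at 3.3 hpf (0.0522) were lost. At 24 hpf none of 15 was called, where 0.223% of all genes were called higher and 0.101% lower.

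Genes of the tissues in which isl1 acts gave few calls at 24 hpf, as did all genes, of which 0.223% were called higher and 0.101% lower. Of the 18 motor neuron genes listed, 2 were called higher at 0 hpf and 2 at 3.3 hpf, against 6.06% and 5.88% of all genes tested. NKX6-2 (a gene of ventral neural progenitors) was among them at both stages (log2 fold change 3.88 and 4.11). None of 16 motor neuron genes tested was called at 24 hpf. Of the sensory neuron genes none was called by edgeR at any stage, of 6, 8 and 15 tested (4 at 0 hpf and 1 at 3.3 hpf with DESeq2). Of the 17 pancreas and endocrine genes listed, PAX6 ENSDARG00000045936 and INSM1 ENSDARG00000091756 were called higher at 3.3 hpf, 2 of 5 tested against 5.88% of all genes. They averaged 0.637 and 0.129 CPM in wild types at 3.3 hpf, so that MZezh2 counts could carry them past the filter. None of 6 tested was called at 0 hpf, and none of 14 at 24 hpf. Of the 18 second heart field genes listed, 3 of 7 tested were called higher at 0 hpf (TBX5, HAND2 and nkx2.7), against 6.06% of all genes. At 3.3 hpf 4 of 10 tested were called higher (TBX5, TBX1 and nkx2.7 among them), against 5.88% of all genes. HAND2 passed the filter in only 5 of the 11 fits with 1 library left out at 0 hpf. It lost its call in those without wild-type replicate 1, 3, 4 or 5 (edgeR adjusted p up to 0.0652). In the remaining fits it was not tested. nkx2.7 lost its call at 0 hpf without wild-type replicate 1, 2, 3 or 5 or MZezh2 replicate 2 or 4 (up to 0.0767). The call was also lost there with the strand-split term, which set apart only MZezh2 replicate 4 (0.0658). At 3.3 hpf the call was lost without wild-type replicate 1 (0.0518) and without the libraries with ezh2 on both strands (0.101).

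TBX5, a factor of the heart and forelimb, was called higher at 24 hpf as well, with 21.8 ± 5.21 CPM in MZezh2 embryos (SD, n = 7) and 6.29 ± 1.66 CPM in wild types (SD, n = 6; log2 fold change 1.78 ± 0.20, SE; edgeR adjusted p = 0.000384, or 0.184 in the fit of all 36 libraries). MYH6, a cardiac myosin heavy chain, was lower, with 42.1 ± 3.30 CPM in MZezh2 embryos and 104 ± 33.8 CPM in wild types (SD, n = 7 and 6; log2 fold change −1.30 ± 0.21, SE; edgeR adjusted p = 0.00883); 1 wild-type library stood at 38.8 CPM, inside the MZezh2 range of 36.4 to 45.8 CPM, and the edgeR adjusted p was 0.128 without the libraries with ezh2 on both strands and 0.0878 in the fit of all 36 libraries. These values are for MYH6 ENSDARG00000079564, and the other gene listed under that symbol, ENSDARG00000090637, was not called. Of 17 second heart field genes tested at 24 hpf, TBX5 and this MYH6 gene were called, against 0.223% of all genes called higher and 0.101% called lower. That list takes in heart genes at large, such as this cardiac myosin, so these calls do not single out the second heart field. Of the PRC2 subunit genes, JARID2 ENSDARG00000060925 and PHF19, accessory subunits of the complex, were called higher at 0 and 3.3 hpf. Their log2 fold changes were 4.58 and 4.87 for JARID2 and 2.71 and 2.29 for PHF19. These were 2 of 11 tested at each stage, against 6.06% and 5.88% of all genes, and the other listed JARID2 gene was not called. PHF19 lost its call at 0 hpf without wild-type replicate 1, 2 or 5 or MZezh2 replicate 2, 4 or 6 (edgeR adjusted p up to 0.0755), and without the libraries with ezh2 on both strands at 0 hpf (0.0878) and 3.3 hpf (0.0811). At 24 hpf none of 11 was called by edgeR, and DESeq2 called 1 lower, ezh2 itself. GSC, a target of Polycomb named by the study, was also higher at 24 hpf (log2 fold change 2.51 ± 0.26, SE; edgeR adjusted p = 0.000227).

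Of the markers of other cells, the summed ovarian somatic cell, muscle and blood markers averaged higher in early MZezh2 embryos, as isl1 did. Muscle markers averaged 10.1 and 8.09 CPM in MZezh2 embryos at 0 and 3.3 hpf, against 7.26 and 6.01 CPM in wild types. Blood markers averaged 2.73 and 2.46 CPM, against 1.91 and 1.07 CPM. The summed motor neuron, sensory neuron, pancreas and heart field genes also averaged higher in MZezh2 embryos at both stages. Single called genes held much of some sums. At 0 hpf NKX6-2 held 28.1 of 51.5 CPM of the motor neuron sum in MZezh2 embryos, against 1.92 of 18.3 CPM in wild types. TBX5 held 19.6 of 62.3 CPM of the heart field sum there, against 1.00 of 17.6 CPM. At 0 hpf the summed level of 11 ovarian somatic cell markers was 5.61 to 18.2 CPM in MZezh2 libraries, against 2.04 to 3.58 CPM in wild types, and at 3.3 hpf 4.36 to 15.4 CPM, against 1.32 to 4.91 CPM; 1 of the 11 was at 0 in all wild-type libraries at each of these stages, and none was at 0 in all MZezh2 libraries. MZezh2 replicate 2 had the highest ovarian sum at both stages, and also the highest isl1. The same replicate had the highest MZezh2 sum of blood, motor neuron, sensory neuron, pancreas and heart field genes at both stages. The summed neuron markers did not separate the genotypes at 0 hpf, with 299 to 545 CPM in MZezh2 libraries against 392.7 to 624.9 CPM in wild types. Unlike isl1, they averaged lower in MZezh2 embryos, with 418 and 352 CPM at 0 and 3.3 hpf, against 532 and 380 CPM. Of the 14 genes in that list, STMN1 ENSDARG00000033655 and MAP1A were called higher at 0 hpf, where 6.06% of all genes tested were. The other listed STMN1 gene was not called. The summed muscle, blood and skin markers overlapped between genotypes at 0 hpf, and the oocyte markers averaged 5133 CPM in MZezh2 embryos and 6004 CPM in wild types. Skin markers averaged 1645 and 1215 CPM in MZezh2 embryos at 0 and 3.3 hpf, against 1561 and 1412 CPM in wild types. Few of these genes passed the filter in early embryos: at 0 hpf 5 of 9 muscle, 0 of 8 blood, 5 of 10 skin and 3 of 11 ovarian markers were tested by edgeR, with no call. Without that filter DESeq2 called 1 muscle and 1 ovarian marker higher at 0 hpf, and 2 muscle, 2 blood and 1 ovarian marker at 3.3 hpf. Over all genes DESeq2 called 2047 of 27383 higher at 0 hpf and 1862 of 28640 at 3.3 hpf. The part of these cells in the isl1 values was not tested.

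Among genes with a symbol, those whose log2(CPM + 0.1) was most like that of isl1 over the 36 libraries were SPTB, p4ha1a, STOX2, WNT3A, TAGLN, NUAK1, hoxa10b and WNT8B, with Pearson correlations of 0.976 for SPTB to 0.966 for WNT8B. These points share the stages, over which most of the variance lies, and 2296 of 19921 genes reached a correlation above 0.9. Over the 13 libraries at 24 hpf with genotype means taken off, the closest included GSX1, TMEM260, PAX9, TSPAN4, si:ch1073-80i24.3, tnfsf10l4 and slc41a2a, with correlations of 0.910 for GSX1 to 0.876 for slc41a2a, and only 2 genes lay above 0.9. GSX1 encodes a homeodomain factor of neural progenitors. These 13 libraries also share the depth sets described above. The correlations are a description of these libraries.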

How the data were processed

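The authors deposited read counts per gene, unstranded and for each strand, for every RNA library; the submitters' processing notes name STAR 2.5.2b and GRCz10. rRNA was depleted before library preparation, and 2 samples per genotype at 24 hpf came from a second kit, which the labels do not assign to libraries. Reads outside single genes stayed out of library sizes (unmapped 4.80 to 75.2%, multimapping 1.64 to 27.5%, no feature 1.77 to 28.6%, ambiguous 0.557 to 2.86% per library). The unstranded counts were tested with edgeR 4.0.16 in R 4.3.3 (quasi-likelihood test, TMM scaling, filterByExpr, Benjamini-Hochberg adjustment over all genes tested), each stage separately, and in 1 fit of all 36 libraries for contrasts over stages. A call is an adjusted p under 0.05 with at least a 2-fold change. Levels are CPM with TMM scaling within a stage. Single values were compared with exact permutation tests. Alternatives included DESeq2 1.42.0, other scalings, counts of 1 strand, and libraries left out. Named genes were isl1, ezh2, the LIM homeobox genes, the leading called members of each other list, and the 8 genes closest to isl1 in each of 2 correlations. Some results that these rules would name are not reported here. Genes and lists were chosen with earlier results of these data known. 26433 gene identifiers matched a symbol. The scripts were tested on simulated data. The peak lists were not used here, since isl1 could not be placed on their build.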

Additional observations from a re-analysis of the deposited data

Results flagged for a closer look

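The level of isl1 in MZezh2 replicate 2 at 0 hpf was 1.42 CPM (31 counts), far from the other 5 MZezh2 libraries at that stage (0.190 to 0.639 CPM): its gap to the nearest library was 0.633 of the group's range. It was the 1 flag among 12 groups tested for isl1 and ezh2. Chance flags about 1 in 20 groups if values are normally spread, and the rule was applied to CPM on a linear scale. Over the same stages and genotypes, the rule flagged 20 groups of the 19 other LIM homeobox genes, so such a flag was common. The same library held the highest CPM of its group for 21.7% of genes, against an even share of 16.7%, and MZezh2 replicate 2 at 3.3 hpf did so for 21.5%, against 14.3%. The cause was not tested.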

How the results depend on the processing

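isl1 was called in none of the stage-wise fits under any alternative run, and its 4 stage changes up to 24 hpf were called under all. The exact permutation test of isl1 lost significance at 0 and 24 hpf with library size only (1.73 and −0.25, adjusted p = 0.0524) and with TMM over all 36 libraries (1.63 and −0.33, adjusted p = 0.0664). It also did so without the ezh2 both-strand libraries (2.03 and −0.27, adjusted p = 0.107 and 0.133, or 0.159 at the 30% cut-off). Both cut-offs were chosen after seeing the data, the second after the results of the first. So were the fits without the filter at 0 and 3.3 hpf, the strand-split term at 0 hpf, the batch term, the 36-library scaling and the pseudocounts 0.01 and 1. Leaving out 1 library gave 1.38 to 2.08 at 0 hpf, −0.38 to −0.26 at 24 hpf, −0.12 to 0.97 for isl1 in MZezh2 from 0 to 3.3 hpf (reversed at −0.12), and −3.62 to −1.93 for the difference 24 minus 0 hpf (DESeq2 −2.69, called). ISL2 ENSDARG00000003971 at 24 hpf reversed to 0.13 without the both-strand libraries and ISL2 ENSDARG00000053499 ran over −0.24 to 0.045 with 1 library left out (reversed at 0.045, without wild-type replicate 2).

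Genes called higher at 0, 3.3 and 24 hpf numbered 999, 994 and 42, with DESeq2 2047, 1862 and 77, in 1 fit of all libraries 2498, 2040 and 17. Genes called lower numbered 28, 30 and 19, with DESeq2 73, 88 and 59, with the batch term 55, 46 and 33, in 1 fit 106, 101 and 2, and with 1 library left out 13 to 39, 17 to 53 and 10 to 26. Without the both-strand libraries 58 genes were called lower at 0 hpf, 516 higher at 3.3 hpf, and 22 higher and 8 lower at 24 hpf; from 0 to 3.3 hpf 241 rose in wild types (377 with all) and 4 in MZezh2 (209; 128 to 251 with 1 library left out), and 621 genes (678 at 30%) had a lower difference at 24 than at 3.3 hpf, against 1046, and at the 30% cut-off 833 than at 0 hpf, against 1327. For 3.3 minus 0 hpf, DESeq2 called 7 genes, and fits with 1 library left out 0 to 4. DESeq2 called 2047 of 27383 genes higher at 0 hpf and 1862 of 28640 at 3.3 hpf. Among them were 4 of the 18 listed motor neuron genes at 3.3 hpf. At 0 and 3.3 hpf they held 4 and 1 of 18 sensory neuron genes, 2 and 5 of 17 pancreas genes, and 10 and 8 of 18 heart field genes. Without the filter on low counts, edgeR called 4.16% and 3.77% of all genes higher at 0 and 3.3 hpf. These held 1 pancreas gene at 0 hpf, and 7 and 7 heart field genes.

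The replicate numbers were not taken to pair the samples: same-numbered deviations correlated at 0.06 to 0.60, 0.02 to 0.58 and −0.02 to 0.76, and 3, 2 and 2 numbers correlated best with their own. With the number as a replicate block, isl1 had a log2 fold change of 2.86, 1.72 and −0.30 (edgeR adjusted p = 0.163, 0.352 and 0.216), and 56 and 37 genes were called lower at 3.3 and 24 hpf. Under it isl1b at 3.3 hpf (edgeR adjusted p = 0.0799), LHX6 ENSDARG00000006896 at 0 hpf (0.0848), nkx2.7 at 0 and 3.3 hpf (0.0581 and 0.0522) and MYH6 at 24 hpf (0.0567) lost their calls, and ezh2 at 24 hpf was called (−1.55; 0.00775). Peak alternatives were not run. At 0 to 35 isl1 counts per early library, depth limits what 0 and 3.3 hpf can show.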
